A study of Mus musculus with 84 samples.

Results

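The 8 genes described here carry the adrenergic control of lipolysis in the fat cell: the receptor genes Adrb1, Adrb3 and Adra2a, the phosphodiesterase gene Pde3b, the lipase genes Pnpla2, Lipe and Mgll, and Abhd5, whose product activates the first of these lipases. They were chosen by name from the 21851 protein-coding genes of the GENCODE annotation of the mouse genome build GRCm38, and all 8 were found. Histone post-translational modifications (hPTMs) were mapped by CUT&Tag, a method where an antibody against a mark brings in a transposase that cuts and tags the DNA nearby, in labelled adipocyte nuclei of epididymal adipose tissue (epiAT). The study asked whether chromatin changes of obesity remain after weight loss (WL). All mice, controls included, were AdipoERCre x NuTRAP on the background the labels give as C576BL6, and were treated with tamoxifen before any high-fat diet (HFD) so that Cre recombinase of the adipocyte lineage tagged the nuclei that were later pulled down. H mice had 12 weeks of HFD and were 18 weeks old, and HC mice had 12 weeks of HFD followed by 8 weeks of chow and were 26 weeks old. Their chow-fed controls of equal age were C and CC_s. HH mice had 25 weeks of HFD and were 31 weeks old, and HHC mice had 25 weeks of HFD followed by 8 weeks of chow and were 39 weeks old, with CC_l and CCC as the chow-fed controls of these ages. The first 4 groups are called the 12-week cohort and the others the 25-week cohort. Each of the 84 libraries was deposited as 1 list of peaks, with 2 or 3 libraries per mark and group. Replicates are labelled as biological, the study's scheme takes all its assays from 1 fat depot, and no pooling of mice is stated for these libraries. The labels do not say that replicate numbers tie a fed mouse to a control mouse.

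In fasting or cold, noradrenaline binds beta-adrenergic receptors on the adipocyte, raises cyclic AMP and activates protein kinase A, which phosphorylates hormone-sensitive lipase and the perilipin coat of the lipid droplet. The alpha-2 receptor and insulin, through phosphodiesterase 3B, lower cyclic AMP and restrain the pathway. Triglyceride is then cut in turn by adipose triglyceride lipase (Pnpla2) with its co-activator CGI-58 (Abhd5), by hormone-sensitive lipase (Lipe) and by monoglyceride lipase (Mgll). In rodent white fat the beta-3 receptor (Adrb3) is the adipocyte form, while the beta-1 receptor (Adrb1) is found in many tissues. Of the marks, H3K4me3 is typical of promoters in use and H3K27ac of promoters and enhancers in use, H3K4me1 is found at enhancers whether active or poised, and H3K27me3 is laid down by polycomb complexes over silenced regions.

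3 measures were taken per gene and library. Promoter width is the summed length of all peaks that touch a window of 2000 bp on either side of a transcription start site (TSS) of the gene. Promoter rank is the percentile, from 0 without a peak to 100, of the total signal of the strongest of these peaks among all peaks of that library. Locus coverage is the length under peaks between 50 kb before and 50 kb after the gene body. Differences are diet minus control, averaged over the cohorts, on a log2 scale for width (log2 of bp plus 100) and locus coverage (log2 of bp plus 1000), which understates the change of small values, and in percentile points for rank. Each was tested in an exact two-sided permutation test within cohorts, run over all genes of a mark with a peak in at least 1 library compared, and a gene was called at an unadjusted p under 0.05. The obese comparison is H against C together with HH against CC_l, and the WL comparison is HC against CC_s together with HHC against CCC. After Benjamini-Hochberg adjustment over all genes, 0 of the 192 exact tests of the 8 genes fell under 0.05, where 36 did before adjustment, and the smallest adjusted p was 0.114. A linear model with limma over the same values put 46 of 192 under 0.05 before adjustment and 7 after it.

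Libraries differed widely in what was called. They held 11249 to 46397 peaks that covered 8.54 to 132.7 Mb. The H3K27ac lists of H mice covered 14.6 Mb on average and those of C mice 46.4 Mb, and for H3K4me3 these were 23.3 and 47 Mb. The study gives a minimum read depth for its samples, but the depth of each library is unknown. A promoter without a peak is therefore one that did not reach the strongest blocks of its library. Promoters of 7 adipocyte markers were all marked by H3K4me3 in the median library, but 5 in H replicate 2, 5 in HC replicate 3 and 4 in HHC replicate 3. By H3K27ac all 7 were marked except for 6 in H replicate 2, 5 in HC replicate 3, 4 in HH replicate 1 and 4 in HHC replicate 3. The summed H3K4me3 coverage of the adipocyte loci was 34.2 kb in HC replicate 3 against 54.2 and 85.6 in the other HC libraries, and 74.7 kb in HHC replicate 3 against 205.7 and 321.5 in the other HHC libraries. In H3K27ac it was 95.8 kb in HH replicate 1 against 362.0 and 358.9 in the other HH libraries. These libraries stand apart, and the results for H3K4me3 and H3K27ac are also given without them, an alternative chosen after seeing the data. Of 8 macrophage marker promoters, H3K4me3 marked 2 in each C library and 7, 8 and 0 in H replicates 1 to 3. It marked 0, 0 and 1 in CC_s, 0, 1 and 5 in HC, 2 and 2 in CC_l, 7 and 7 in HH, 3 and 1 in CCC and 7 in each HHC library. The summed H3K4me3 coverage of their loci was 24.2 to 30.9 kb in C, 6.75 to 40.2 in H, 8.41 to 20.5 in CC_s, 7.74 to 35.1 in HC, 27.5 to 38 in CC_l, 73.6 to 82.0 in HH, 41.2 to 47.3 in CCC and 77.8 to 102.3 in HHC. For H3K27ac, Itgam was at 0 in every library, and 1 macrophage promoter was marked in each C library against 5, 3 and 0 in H. The part of these cells in the results below was not tested.

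The promoters themselves differ in their content of CpG, the dinucleotide that is dense at the promoters of housekeeping and many polycomb-bound genes. The sequences of 3 are shown: a receptor gene that gained H3K27me3, a lipase gene that never carried it, and the promoter of the lipase with the highest H3K4me3 rank. They are the 250 bases before the start of the transcript as given by RefSeq on GRCm38.p6, written 5′ to 3′ on the strand of the gene in lower case with each CpG in capitals, at chr19:56721867-56722116 (plus strand) for Adrb1, chr7:141454938-141455187 (plus strand) for Pnpla2 and chr7:25390113-25390362 (minus strand) for the downstream start of Lipe.
Adrb1: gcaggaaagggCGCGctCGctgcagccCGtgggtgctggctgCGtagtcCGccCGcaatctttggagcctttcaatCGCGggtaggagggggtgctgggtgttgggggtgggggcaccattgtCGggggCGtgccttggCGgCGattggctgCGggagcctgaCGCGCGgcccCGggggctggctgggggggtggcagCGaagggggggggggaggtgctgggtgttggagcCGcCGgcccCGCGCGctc
Pnpla2: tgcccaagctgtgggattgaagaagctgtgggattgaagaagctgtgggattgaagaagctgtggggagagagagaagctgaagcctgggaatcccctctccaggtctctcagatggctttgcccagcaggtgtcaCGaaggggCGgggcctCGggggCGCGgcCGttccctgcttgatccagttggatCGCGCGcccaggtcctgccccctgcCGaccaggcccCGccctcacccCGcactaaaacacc
Lipe: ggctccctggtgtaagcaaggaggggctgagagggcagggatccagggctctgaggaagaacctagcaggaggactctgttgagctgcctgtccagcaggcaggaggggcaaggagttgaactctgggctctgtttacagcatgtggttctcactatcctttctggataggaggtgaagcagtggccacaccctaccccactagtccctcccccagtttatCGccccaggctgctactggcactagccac
The Adrb1 stretch held 24 CpG, as many as or more than are found in all but 12.0% of 32851 RefSeq promoters of this length, whose median was 6.0. Pnpla2 held 12 CpG (33.5% of promoters had as many) and the downstream Lipe start 1 (92.1%). Adra2a and Abhd5 each held 22 CpG (14.8%), the upstream Lipe start 18 (21.7%) and the Mgll starts 23 (13.3%) and 40 (1.3%), the latter being the most of the windows read. Adrb3 and Pde3b had no entry among the RefSeq promoters and were not read. The windows of Adra2a, Abhd5, the upstream Lipe start and the second Mgll start overlapped an exon of their gene. A cyclic AMP response element core, TGACGTCA, was in none of the windows read and in 1.5% of all promoters. Its partial form TGACG was found on either strand in Adrb1, Adra2a and Abhd5 and in 17.8% of promoters. The GC box GGGCGG was in Adrb1, Adra2a, Abhd5, Pnpla2, the second Mgll start and the upstream Lipe start, and in 32.7% of promoters. The nuclear receptor site AGGTCA was in Abhd5 alone among them and in 14% of promoters, and the CCAAT box (CCAAT) was in Adrb1 alone and in 33.8%. The E-box CACGTG was in Adra2a, the first Mgll start and the upstream Lipe start, and in 6.0% of promoters. TATAAA was in Adra2a and in 12.4%.

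The 8 promoters differed in which marks they carried at all. H3K4me3 marked Adrb1, Pde3b, Lipe, Pnpla2, Mgll and Abhd5 in 21 of 21 libraries and Adrb3 in 20 of 21, whereas 39.2% of all protein-coding promoters were marked in every library. H3K27ac marked Lipe and Pnpla2 in 21 of 21 libraries, Pde3b, Mgll and Abhd5 in 20, Adrb1 in 18 and Adrb3 in 17. Of all promoters, 8.67% had H3K27ac in every library and 33.9% in none. H3K4me1 was found at Lipe in 21 of 22 libraries, at Pnpla2 in 19, at Mgll in 18, at Adrb3 in 17, at Abhd5 in 15, at Adrb1 in 12 and at Pde3b in 5. It marked 1.565% of all promoters in every library and 34.9% in none. H3K27me3 was found at Lipe, Pnpla2 and Abhd5 in 0 of 20 libraries, at Pde3b in 2 and at Mgll in 3. Its absence from every library was shared by 52.3% of all promoters, and 4.02% had H3K27me3 in all libraries. At the receptor genes H3K27me3 was found in 11 of 20 libraries for Adrb1, 15 for Adrb3 and 19 for Adra2a. Unlike the lipase promoters, that of Adra2a had H3K27ac in 0 of 21 libraries and H3K4me3 in 12.

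**Figure D1:**
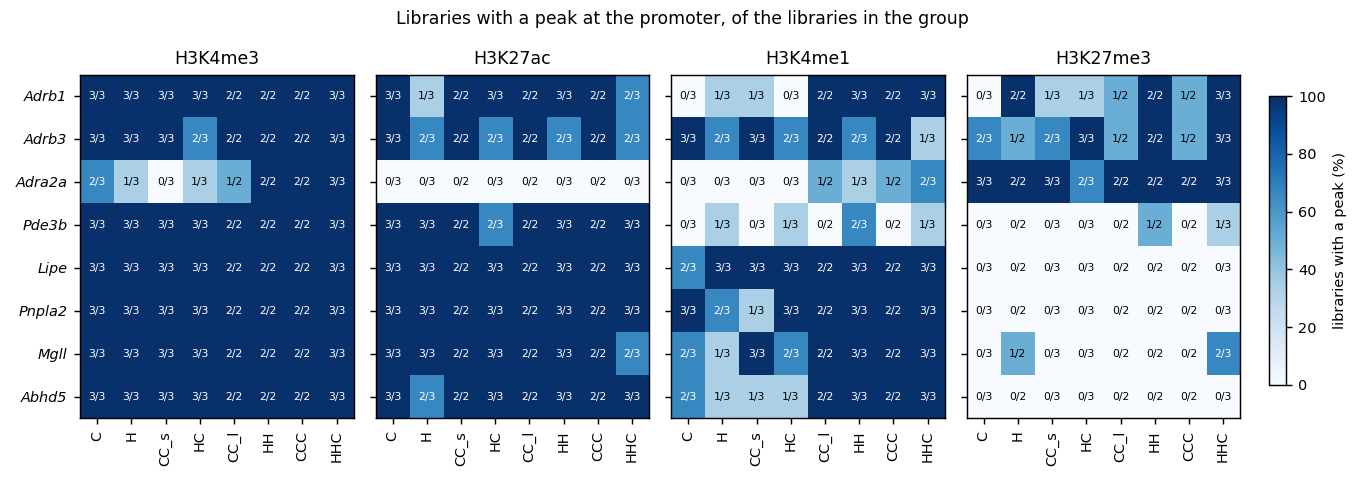
Share of libraries with a peak at the promoter of each of the 8 genes, by mark and diet group (colour scale from 0 to 100%, number of marked libraries in each cell). Outside the 3 receptor genes H3K27me3 appears in 2 libraries at Pde3b and in 3 at Mgll, and Adra2a has no H3K27ac in any of 21 libraries.

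For H3K4me3 in obesity, ranks were lower at 5 of 8 promoters (Adrb1, Adrb3, Pde3b, Pnpla2 and Abhd5) where 9.84% of all tested promoters were called lower, and the median difference was -9.85 points over the 8 genes and -4.76 over all. Widths were lower at 2 of 8 (Pde3b and Lipe, background 3.8%) and locus coverage at 1 of 8 (Adrb3, background 3.74%). The lower values lay in the 12-week cohort: the median rank difference of the 8 genes was -18.1 points there and -0.36 in the 25-week cohort. After WL, ranks were lower at 5 of 8 promoters (Adrb1, Adrb3, Pde3b, Lipe and Abhd5), where the background was 1.28% and the median difference was 3.48 points over all promoters against -9.29 for the 8 genes. Width was lower at 1 of 8 (Adrb3, background 1.45%) and locus coverage at 2 of 8 (Adrb1 and Abhd5, background 1.21%). In WL the medians were below 0 in both cohorts, at -12.4 points in HC and -6.17 in HHC. Without HC replicate 3 and HHC replicate 3 the rank calls after WL were 2 of 8, Adrb1 and Adrb3, where 0.902% of all promoters were called lower, and the median of the 8 genes was -5.89. Without H replicate 2 the same 5 obese ranks were called (12.7% of all promoters), and neither width. Scaled to the total peak length of a library, the obese widths of Pde3b and Lipe were -0.19 (exact p = 0.45) and -0.15 (exact p = 0.6), and the median of all promoters was 0.03. The same scaling called obese locus coverage lower at Adrb1 (-0.56) and Pnpla2 (-0.33), with exact p = 0.0167 each, but not at Adrb3 (exact p = 0.0667). After WL it called coverage lower at Adrb1, Adrb3, Pnpla2 and Abhd5 (exact p = 0.015, 0.03, 0.01 and 0.015). WL widths were called lower at Adrb1 and Adrb3 (exact p = 0.015 and 0.01). The share of all genes called when scaled was not taken. The treatment label contradicts the title, which was used here, in 4 of the older H3K4me3 libraries, namely HH replicates 2 and 3, CC_l replicate 2 and CCC replicate 3. With that label none of the 8 obese H3K4me3 calls was kept, at exact p of 0.05 to 0.1 for the 5 ranks, 0.15 and 0.1 for the widths of Pde3b and Lipe and 0.1 for the Adrb3 locus. After WL it ended the calls of the Adrb3 rank (exact p = 0.055) and the Abhd5 locus (exact p = 0.06).

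The same rank tests were read for markers of cell types. The median difference of the 7 adipocyte marker promoters was -28.0 points in obesity, with 4 of 7 called lower (background 9.84%). After WL it was -27.97, with 2 of 7 called lower (background 1.28%). By cohort the obese medians were -55.7 points at 12 weeks and -0.38 at 25 weeks, and those after WL -35.7 and -31.7. The median difference of 6 endothelial markers was 27.2 in obesity (0 of 6 called) and 26.6 after WL, where 3 of 6 were called higher against a background of 8.07%. That of 8 macrophage markers was 27.6 in obesity (0 of 8 called) and 18.8 after WL (1 of 7 called higher). Lists of lymphocyte, progenitor, mural, mesothelial and brown or beige adipocyte markers had medians of -10.1 to 8.63 in obesity with 0 called, and of 0 to 24.1 after WL with 1 lymphocyte and 1 progenitor promoter higher. The part of these markers in the ranks of the 8 genes was not tested.

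**Figure D2:**
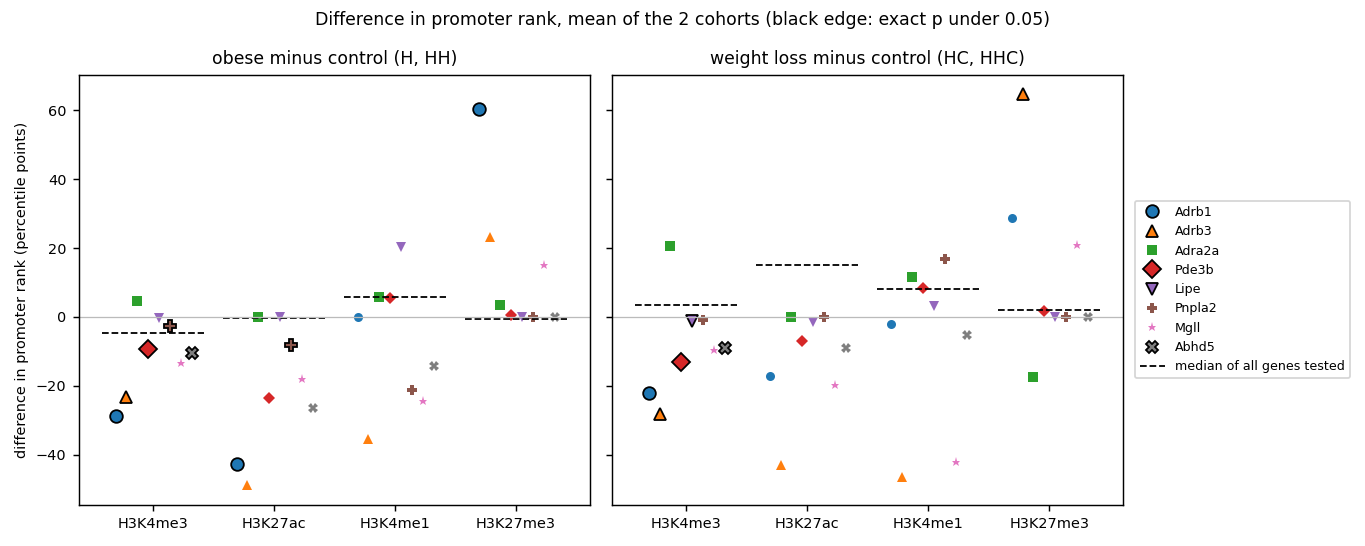
Difference in promoter rank between diet and control libraries (percentile points, mean over cohorts) for each of the 8 genes, by mark and comparison, with a black edge for exact p under 0.05 and a dashed line at the median of all tested promoters. In both comparisons the H3K4me3 points of Adrb1 and Adrb3 lie lowest, and the highest H3K27me3 point is Adrb1 in obesity and Adrb3 after WL.

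For H3K27ac in obesity, promoter widths were lower at 6 of the 7 promoters tested (Adrb1, Adrb3, Pde3b, Lipe, Pnpla2 and Mgll) against a background of 17%, with a median of -1.61 over the genes and -0.66 over all promoters. Locus coverage was lower at 5 of 8 (Adrb1, Adrb3, Pnpla2, Mgll and Abhd5, background 28.7%), with medians of -1.11 and -0.52. Ranks were lower at 2 of 7 (Adrb1 and Pnpla2, background 6.14%). In the 12-week cohort peak length was lower over the genome as a whole. The median locus difference of all genes was -1.02 there and -0.02 in the 25-week cohort. Medians of the 8 genes in these cohorts were -1.87 and -0.34 in locus coverage and -2.76 and -0.63 in width. Scaled to the total peak length of a library, the median locus of all genes moved from -0.52 to about 0, and the coverage at Adrb1, Adrb3 and Abhd5 stayed lower by 0.73, 0.83 and 0.87 on the log2 scale with exact p of 0.05, 0.075 and 0.11, while Pnpla2 turned to 0.10 in locus coverage and Lipe to 0.0692 in width. Calls that this scaling left were Pnpla2 in width and Mgll in locus coverage. Locus coverage of the 7 adipocyte markers was called lower at 6 of 7 loci, with a median of -1.29. After WL no H3K27ac test of the 8 genes was called in either direction, where width, rank and locus coverage were called at 1.83%, 6.09% and 2.68% of all genes. Scaled to total peak length, however, Mgll coverage after WL was lower by 0.72 (exact p = 0.01). Centred on the median locus of each library, which was chosen after seeing the data, Mgll was at -0.71 (exact p = 0.01) and Abhd5 at -1.16 (exact p = 0.04). The share of all genes called when scaled or centred was not taken. Without H replicate 2 and HH replicate 1 the obese calls were 5 widths (Lipe at -0.53, exact p = 0.0833), 4 loci (Adrb1 at -1.17, exact p = 0.0833) and 3 ranks (Adrb3, Pnpla2 and Mgll, with Adrb1 at -28.6 and exact p = 0.05), where 12.0%, 22.1% and 6.45% of all genes were called lower. After WL no test can reach 0.05 without HC replicate 3 and HHC replicate 3.

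The median H3K27ac rank difference after WL was -8.04 points over the 8 genes where it was 15.1 over all promoters. Without HC replicate 3 and HHC replicate 3 these medians were -0.52 and 9.54 points. H3K4me1 gave 1 call, a lower locus coverage at Abhd5 in obesity (1 of 8, background 6.57%), and none in width or rank in obesity (background 4.22% and 5.86% in either direction) or in width, rank and locus coverage after WL (2.12%, 3.58% and 7.91%). Scaled to total peak length, H3K4me1 coverage was called lower at Adrb3 (-0.945, exact p = 0.035) and Mgll (-0.36, exact p = 0.01) in obesity and at Mgll (-0.49, exact p = 0.01) after WL, and Lipe was called higher after WL in coverage (0.50, exact p = 0.035) and width (0.60, exact p = 0.04). For these scaled calls, too, the share of all genes was not taken. The H3K27me3 calls were of higher values. In obesity 1 of the 5 promoters tested had a higher width and rank, which was Adrb1 (background 0.95% and 2.23%), and 1 of 8 loci had higher coverage, which was Abhd5 (background 1.8%). After WL the width and rank were higher at 1 of 5 promoters, Adrb3 (background 1.72% and 2.4%), and coverage was higher at 1 of 8 loci, Mgll (background 6.48%). The median H3K27me3 locus difference after WL was 0.93 over the 8 genes and 0.08 over all. In obesity coverage differed upwards at 5 and downwards at 3 of the 8 loci.

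Adrb1 encodes the beta-1 adrenergic receptor and lies at chr19:56722199-56733113 on the plus strand of GRCm38. Its H3K4me3 promoter width was 7.84, 4.70 and 7.37 kb in C and 1.3, 1.11 and 1.73 kb in H. It was 3.43, 3.91 and 7.22 kb in CC_s and 3.64, 1.72 and 2.34 kb in HC. In the older cohort it was 5.25 and 8.22 kb in CC_l, 8.53 and 5.26 in HH, 8.49 and 8.86 in CCC, and 7.07, 9.24 and 3.26 in HHC. Every H library was narrower than every C library, whereas HH and CC_l overlapped. Ranks were 83.5 to 96.2 in C and 29.2 to 38.8 in H, a difference of -28.6 points over both cohorts (exact p = 0.0167, the smallest such a design can give), made up of -55.0 in the 12-week and -2.18 in the 25-week cohort. This call was kept without any 1 of the 10 libraries, with differences of -30.1 to -27.0. In WL, ranks were 72.2, 73.5 and 96.7 in CC_s and 65.5, 45.5 and 52.1 in HC. They were 97.9 and 98.3 in CCC and 76.8, 97.9 and 67.3 in HHC, so that neither cohort overlapped, and the difference was -21.9 points (exact p = 0.02). Without CCC replicate 1 or 3 that p was 0.05, with differences of -22.0 and -21.9. Locus coverage after WL was lower by 0.90 on the log2 scale (exact p = 0.025), between -1.04 and -0.68 with 1 library left out, and p was 0.05 to 0.0875 without CC_s replicate 3, HC replicate 2, or CCC replicate 1 or 3.

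H3K27me3 appeared at Adrb1 in obesity. No C library had a peak there, and both H libraries did, of 1.82 and 1.22 kb with ranks of 61.7 and 88.2. Of all 21851 promoters, 1.29% were gained in the same way, in every H and no C library, and Adrb1 was the 1 gene of the 8. In the older cohort it was 7.52 kb and absent in CC_l, and 8.76 and 4.31 kb in HH. After WL it was present in 1 of 3 CC_s and 1 of 3 HC libraries, and in 1 of 2 CCC and 3 of 3 HHC libraries, where it spanned 12.6, 3.85 and 2.61 kb. The rank difference was 60.3 points in obesity (exact p = 0.0333) and 28.7 after WL (exact p = 0.24), and the obese width was higher by 3.42 on the log2 scale (exact p = 0.0333). Without CC_l replicate 2 these obese differences were 38.5 points and 1.85, and without any of the libraries but CC_l replicate 1 the p was 0.0667 to 0.167. With a window of 500 bp the difference in width was 1.10 (exact p = 1.0).

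H3K27ac at Adrb1 was lower in obesity. Promoter widths were 6.38, 2.58 and 3.03 kb in C and 0, 0 and 0.693 kb in H, and 2.35 and 4.79 kb in CC_l against 0.895, 3.81 and 2.29 kb in HH. The difference was -2.48 (exact p = 0.02), and the p was 0.05 to 0.06 without C replicate 1, 2 or 3 or CC_l replicate 2, with differences of -2.61 to -2.23. The rank difference was -42.7 points (exact p = 0.03; 0.05 to 0.075 without any 1 control library, at -47.5 to -39.8 points). The locus lost 1.45 on the log2 scale (exact p = 0.045), between -1.59 and -1.22 in the 11 omissions, of which only those of CC_l replicate 1 and HH replicate 2 kept the call. A region of 6.45 kb at chr19:56699050-56705502, 16.7 kb upstream of the gene, carried H3K27ac in all 9 control libraries. Of the diet libraries, it was marked in 1 of 3 from H, 1 of 3 from HC, 3 of 3 from HH and 2 of 3 from HHC. A second region of 9.34 kb, 6.45 kb downstream, was marked in 19 of 21 libraries.

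Adrb3 encodes the beta-3 receptor, the main catecholamine receptor of the rodent adipocyte, and lies at chr8:27225776-27250616 on the minus strand. The TSS used here are those of protein-coding transcripts and lie inside this span, not at its upstream end. In C libraries a single H3K4me3 block ran from about -3 to about 7 kb of the TSS and measured 9.57, 10.7 and 10.0 kb. In H libraries what remained was 3.61, 0.789 and 1.90 kb. CC_s libraries had 6.55, 6.62 and 9.96 kb and HC libraries 4.82, 2.90 and 0 kb. The block was 10.4 and 10.3 kb in CC_l, 9.83 and 13.7 in HH, 11.4 and 14 in CCC, and 6.50, 10.4 and 3.07 in HHC. Diet and control libraries were apart in H, HC and HHC and overlapped in HH. By rank the promoter was among the strongest of its library in all 10 controls, at 98.3 to 99.8. H libraries had ranks of 74.8, 9.95 and 78.4, HC libraries 94.0, 89.5 and 0, HH libraries 97.7 and 99.5, and HHC libraries 87.8, 99.6 and 57.0. H replicate 2, at 0.789 kb, had 8 of 8 macrophage promoters marked by H3K4me3. H replicate 3, at 1.90 kb, had 0 of 8 and also the shortest list of this mark, of 11249 peaks over 11.04 Mb. H replicate 2, HC replicate 3 and HHC replicate 3, the lowest of their groups, were those with the fewest adipocyte promoters marked, at 5, 5 and 4 of 7.

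**Figure D3:**
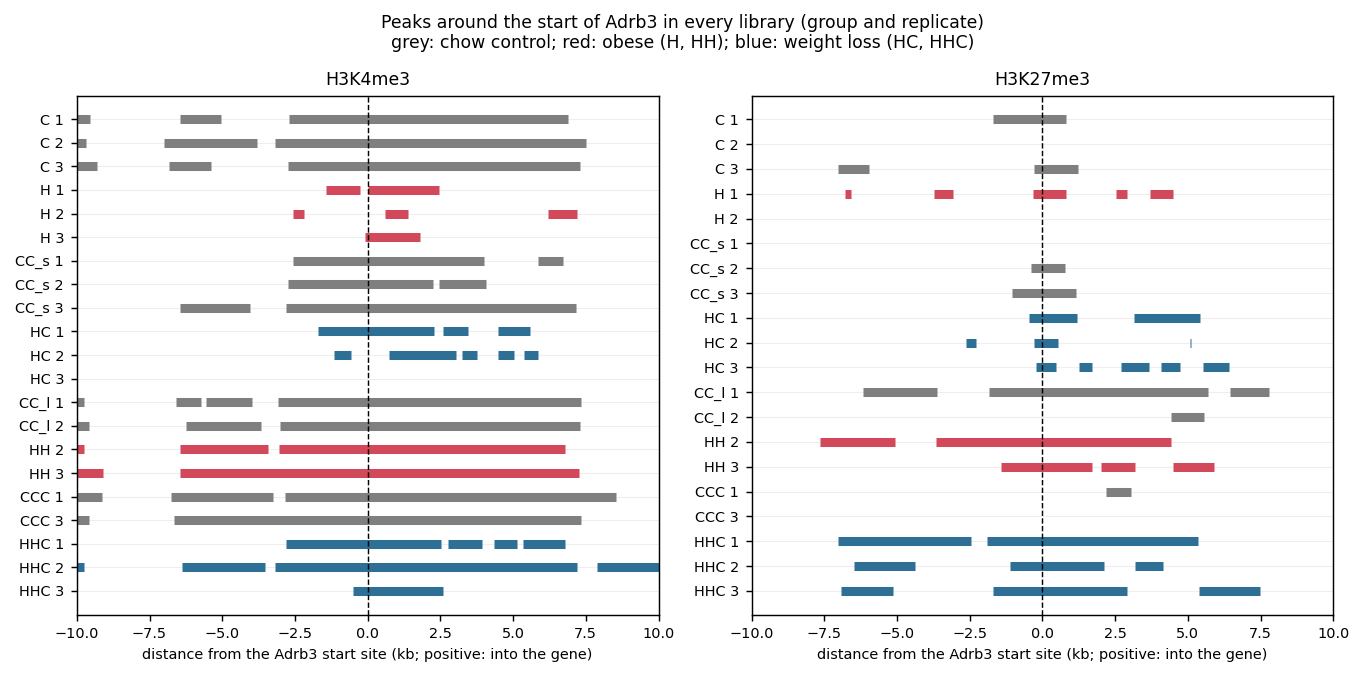
H3K4me3 (left) and H3K27me3 (right) peaks around the Adrb3 TSS, 1 line per library with bars for peaks against the distance from the TSS (kb, positive in the direction of transcription), in grey for controls, red for obese and blue for WL libraries. The H3K4me3 block of 9.57 to 10.7 kb in C is reduced to 0.789 to 3.61 kb in H and is missing in HC replicate 3, while H3K27me3 crosses the TSS in all 3 HC and all 3 HHC libraries.

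The WL width of Adrb3 was lower by 1.91 on the log2 scale (exact p = 0.02), with -2.75 in HC and -1.07 in HHC. Without HC replicate 3, the library with no peak, the difference was -1.03 (exact p = 0.03), and without HHC replicate 3 as well it was -0.80 (exact p = 0.0167). The p was 0.05 to 0.09 without any 1 of the 5 control libraries, at differences of -1.99 to -1.81. The WL rank was lower by 28.1 points (exact p = 0.04), by 12.8 without HC replicate 3 (exact p = 0.07), by 6.66 without both that library and HHC replicate 3 (exact p = 0.0167), and the p was 0.138 to 0.17 without any 1 control library at -28.3 to -27.9 points. The obese rank was lower by 23.1 points (exact p = 0.0167), by 12.0 without H replicate 2 (exact p = 0.0167), and at 23.1 with exact p = 0.183 without any 1 of C replicates 1 to 3. The obese locus coverage was lower by 0.94 on the log2 scale (exact p = 0.0333; 0.05 and 0.0667 without CC_l replicate 2, at -0.89, or HH replicate 2, at -0.86), and by 0.61 when scaled to total peak length (exact p = 0.0667).

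H3K27ac at Adrb3 was also lower in obesity. Its promoter widths were 14, 7.27 and 9.64 kb in C, 0.42, 0 and 1.68 kb in H, 5.82 and 11.8 kb in CC_s, and 3.07, 2.62 and 0 kb in HC. They were 15.5 and 14.3 kb in CC_l, 0, 10.4 and 14.4 kb in HH, 22.6 and 6.35 kb in CCC, and 3.18, 15.1 and 0 kb in HHC. The younger cohort was apart in both comparisons, and the older overlapped. The obese width was lower by 3.53 on the log2 scale (exact p = 0.03), with p of 0.06 to 0.15 without any 1 control library or H replicate 2, at -3.65 to -2.99. The obese locus coverage, 24.3 to 32.7 kb in C and 2.13 to 7.95 kb in H, was lower by 1.65 (exact p = 0.01), a call kept in all 11 omissions. In WL the width differed by -2.98 (exact p = 0.13) and the locus by -1.03 (exact p = 0.11). The region at chr8:27247925-27269263, 21.3 kb long and partly in the gene body, was marked by H3K27ac in 21 of 21 libraries. It also covers the promoter of Eif4ebp1.

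H3K27me3 at the Adrb3 promoter was found in 3 of 3 HC and 3 of 3 HHC libraries against 2 of 3 CC_s and 1 of 2 CCC. Widths were 0, 1.17 and 2.22 kb in CC_s, 1.65, 0.823 and 2.09 kb in HC, 0.889 and 0 kb in CCC, and 7.26, 3.24 and 4.61 kb in HHC. The rank was higher by 64.7 points after WL (exact p = 0.01), by 47 in HC and 82.3 in HHC, a call kept in all 11 omissions at 56.9 to 73.4 points. HC and CC_s overlapped, and HHC and CCC did not. The width was higher by 2.57 (exact p = 0.04), with p of 0.08 to 0.117 in 8 of 11 omissions (CC_s replicate 1, HC replicates 1 and 3, both CCC and all HHC libraries) at 1.75 to 3.4. In obesity the rank differed by 23.2 points (exact p = 0.533).

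**Figure D4:**
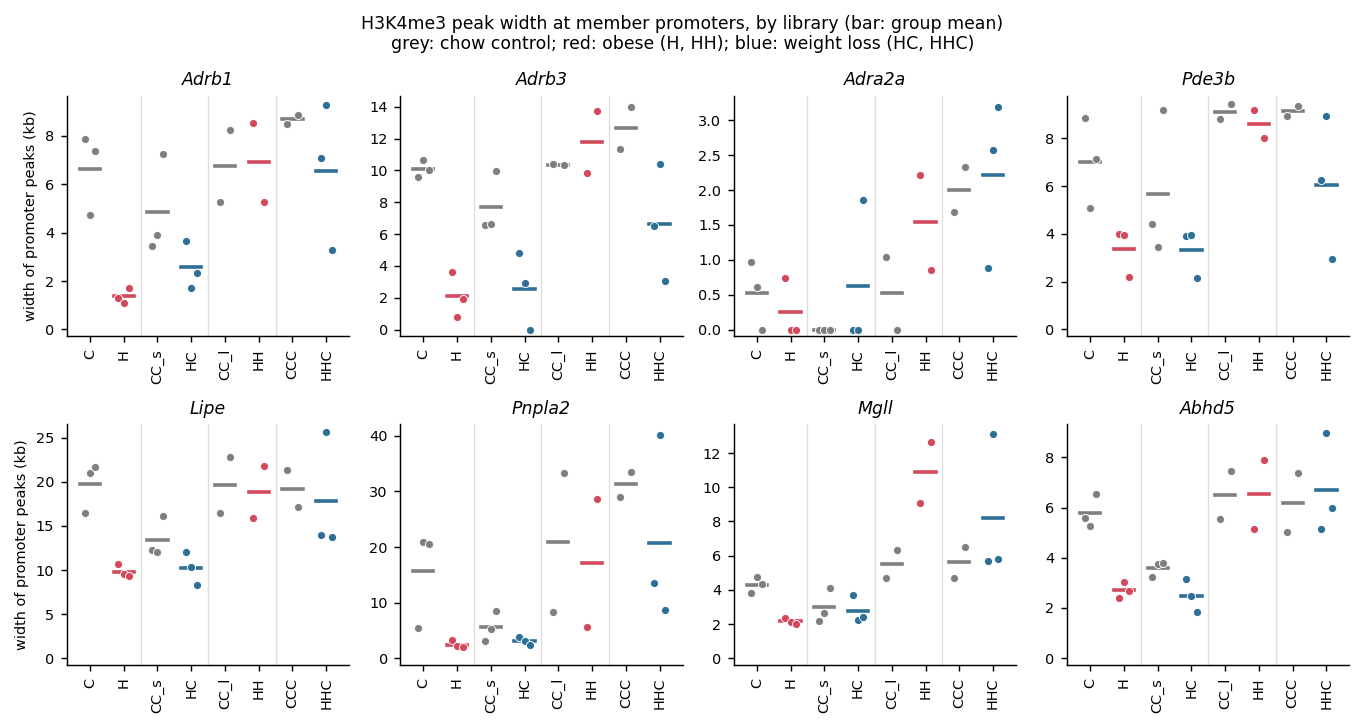
H3K4me3 promoter width (kb) of the 8 genes in every library by diet group, with 1 point per library, a bar at the group mean, and grey for controls, red for obese and blue for WL libraries. Adrb3 in H and HC lies at 0 to 4.82 kb, under every library of C and CC_s, which lie at 6.55 to 10.7 kb.

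Adra2a encodes the alpha-2A receptor, which inhibits adenylyl cyclase and lipolysis, at chr19:54044151-54048982 on the plus strand. Its promoter carried H3K27me3 in 19 of 20 libraries. The H3K27me3 widths were 1.90, 3.36 and 3.72 kb in C, 2.26 and 2.58 in H, 3.19, 2.37 and 2.08 in CC_s, and 0, 0.307 and 2.86 in HC. The older libraries held 3.96 to 5.38 kb throughout. Groups overlapped in H and HC, and the WL difference was -1.16 on the log2 scale (exact p = 0.34), with -2.40 in HC and 0.08 in HHC. H3K4me3 was found in 0 of 3 CC_s, 1 of 3 HC and 3 of 3 HHC libraries, with peaks of at most 3.19 kb, and its WL rank difference was 20.6 points (exact p = 0.2). 1 distal H3K27ac region lay in the locus and was marked in 2 of 21 libraries.

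Pde3b encodes phosphodiesterase 3B, through which insulin lowers cyclic AMP, at chr7:114415281-114539251 on the plus strand. H3K4me3 promoter widths were 8.83, 5.07 and 7.15 kb in C, 4.02, 3.94 and 2.20 in H, 4.43, 3.45 and 9.17 in CC_s, and 3.90, 3.96 and 2.17 in HC. In the older cohort they were 8.79 and 9.42 kb in CC_l, 9.17 and 8.02 in HH, 8.94 and 9.35 in CCC, and 6.27, 8.95 and 2.95 in HHC. H libraries were all under C libraries, and the other pairs overlapped. The obese width was lower by 0.56 (exact p = 0.0333; 0.05 to 0.0833 without C replicate 1, any H replicate, CC_l replicate 2 or HH replicate 3, at -0.64 to -0.43) and the obese rank differed by -9.22 points (exact p = 0.0333; 0.05 to 0.0833 without any C replicate, CC_l replicate 2 or HH replicate 3, at -9.57 to -8.76). The WL rank was lower by 13.2 points (exact p = 0.04), with p of 0.0625 to 0.1 in 8 of 11 omissions (CC_s replicates 1 and 3, HC replicates 1 and 3, both CCC, HHC replicates 1 and 3) at -14.1 to -10.4, and it was -8.56 without HC replicate 3 and HHC replicate 3 (exact p = 0.15). H3K27ac width was 4.07 to 4.12 kb in C and 2.23, 0.577 and 1.24 kb in H, and 7.15 and 6.71 kb in CC_l against 2.80, 5.49 and 5.95 kb in HH. The groups did not overlap in either cohort, and the difference of -1.16 (exact p = 0.015) kept its call in all 11 omissions. It was not called with a 500 bp window (-0.76, exact p = 0.15) or with equal peak numbers (-2.43, exact p = 0.085). Nor was it called when scaled to total peak length (-0.28, exact p = 0.34) or centred (-0.44, exact p = 0.05).

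Pnpla2, adipose triglyceride lipase, performs the first step of triglyceride breakdown and lies at chr7:141455198-141460743 on the plus strand, among 10 other coding genes. Its H3K4me3 rank was 92.3 or more in 21 of 21 libraries. Ranks were 98.4 to 99.9 in C and 92.3 to 96.0 in H, a difference of -2.63 points over both cohorts (exact p = 0.0333; 0.05 and 0.0667 without CC_l replicate 2, at -2.56, or HH replicate 2, at -2.33). H3K27ac widths were 12.2, 11.3 and 10.7 kb in C, 3.4, 2.39 and 1.14 in H, 33.5 and 33 in CC_l, and 15.6, 32.3 and 18.6 in HH. Neither cohort overlapped, and the difference of -1.52 (exact p = 0.01) kept its call in every alternative run. After WL the widths were 9.73 and 19.4 kb in CC_s, 2.89, 3.91 and 5.28 in HC, 29.4 and 5.26 in CCC, and 20.7, 36.6 and 27.4 in HHC. HC libraries all lay under CC_s libraries, whereas HHC and CCC overlapped. The obese rank was lower by 8.24 points (exact p = 0.015), by 4.27 without H replicate 3 (exact p = 0.02), and p was 0.12 without any 1 C replicate at -8.57 to -8.07. The locus was lower by 0.77 (exact p = 0.025; 0.05 to 0.13 without any C replicate, CC_l replicate 1 or HH replicate 3, at -0.84 to -0.70). Peaks that touched this promoter ran on over the TSS of a neighbour such as Cd151 in 11 of 21 H3K4me3 and 13 of 21 H3K27ac libraries, so the width is not of Pnpla2 alone. The same was seen at no other of the 8 genes.

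Abhd5 encodes CGI-58, the co-activator of that lipase, and lies at chr9:122351608-122381524 on the plus strand. H3K4me3 ranks were 96.3, 97.4 and 96.0 in C, 87.4, 53.4 and 94.7 in H, 97.4 and 97.3 in CC_l, and 92.6 and 96.3 in HH, apart in both cohorts. The obese difference was -10.5 points (exact p = 0.0167), -4.21 without H replicate 2 (exact p = 0.0167), and p was 0.0667 to 0.2 without any 1 control library at -10.6 to -10.3. In WL the ranks were 90.6, 97.7 and 95 in CC_s, 88.4, 84.8 and 73.5 in HC, 95.3 and 95.7 in CCC, and 90.3, 95.9 and 82.5 in HHC, a difference of -9.08 points (exact p = 0.025). The WL locus coverage was lower by 0.73 (exact p = 0.03). For these WL calls p was 0.05 to 0.09 for the rank in 8 of 11 omissions (any control, HC replicate 3, HHC replicate 1 or 3; -10 to -6.9 points) and 0.05 for the locus in all omissions but that of HHC replicate 2 (-0.82 to -0.63). Without HC replicate 3 and HHC replicate 3 together the WL differences were -5.13 points (exact p = 0.1) and -0.55 (exact p = 0.1). H3K27ac coverage of the locus was 26.2, 21.9 and 10.3 kb in C, 3.79, 1.43 and 4.12 in H, 27.3 and 25.2 in CC_l, and 3.10, 24.0 and 23.3 in HH. It was lower by 1.65 (exact p = 0.025; 0.05 to 0.1 without any H or CC_l library, at -1.75 to -1.48), and H3K4me1 coverage was lower by 1.78 (exact p = 0.01; 0.075 without CC_l replicate 2, at -1.66). H3K27me3 was not at the promoter. In the flanks it covered 0 kb in each C library and 0.486 and 1.10 kb in H, 2.80 and 0 kb in CC_l, and 7.88 and 2.19 kb in HH. That difference was 1.14 (exact p = 0.0333), 0.65 without CC_l replicate 2 (exact p = 0.267), and p was 0.0833 to 0.267 without any other library but CC_l replicate 1, at 0.77 to 1.5. Within 20 kb of the gene there was no such difference (0, exact p = 1.0).

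Lipe, hormone-sensitive lipase, lies at chr7:25379527-25398710 on the minus strand and had the highest median ranks of the 8 in H3K4me3 and H3K27ac, though not in H3K4me1. Its H3K4me3 rank was 98.95 or more in 20 of 21 libraries and 93.6 in HC replicate 3, and its H3K27ac rank 93.6 to 99.96 in 21. H3K4me3 widths were 16.5, 21 and 21.6 kb in C, 10.6, 9.50 and 9.34 in H, 16.5 and 22.8 in CC_l, and 15.9 and 21.8 in HH. The obese width was lower by 0.52 (exact p = 0.0333; 0.05 to 0.133 in 8 of 10 omissions, all but CC_l replicate 1 and HH replicate 3, at -0.59 to -0.41). H3K27ac widths were 15.7 to 17.2 kb in C and 4.37 to 9.96 kb in H, lower by 0.85 over both cohorts (exact p = 0.045; 0.05 to 0.09 in all omissions but that of HH replicate 2, at -1.0 to -0.67), and higher by 0.0692 when scaled to total peak length (exact p = 0.775). The WL rank of H3K4me3 was lower by 1.17 points (exact p = 0.03), but by 0.14 without HC replicate 3 (exact p = 0.05) and by 0.0948 without HHC replicate 3 as well (exact p = 0.05), and p was 0.05 to 0.43 without any 1 control library or HHC replicate 1 or 3 at -1.18 to -1.12. H3K27me3 was never found at its promoter, and H3K4me1 widths in the older cohort, 5.63 and 6.64 kb in CC_l and 7.26, 13.7 and 21.8 kb in HH, did not give a called difference (1.34 over both cohorts, exact p = 0.18).

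Mgll, monoglyceride lipase, releases the last fatty acid and lies at chr6:88724412-88828360 on the plus strand. H3K27ac covered 61.2, 51.0 and 38.2 kb of its locus in C and 10.5, 1.94 and 6.42 kb in H. It covered 23.1 and 48.1 kb in CC_s and 6.59, 14.7 and 18.2 kb in HC. In the older cohort it was 70.3 and 67.0 kb in CC_l, 48.5, 59.3 and 61.3 in HH, 89.4 and 24.7 in CCC, and 51.5, 95.7 and 62.2 in HHC. Obese libraries lay under their controls in both cohorts, although by far less in HH. The obese difference was -1.64 (exact p = 0.01), with -2.99 and -0.29 in the 12- and 25-week cohorts, and it kept its call in all 21 alternatives. The promoter width was lower by 1.94 (exact p = 0.025), also in all 11 omissions, and by 1.10 when scaled to total peak length (exact p = 0.05). A region of 49.95 kb inside the gene, chr6:88739501-88789450, carried H3K27ac in 21 of 21 and H3K4me1 in 22 of 22 libraries.

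H3K27me3 coverage of the Mgll locus was higher after WL, a comparison in which its H3K27ac coverage differed by -0.44 (exact p = 0.47). It was 0 kb in each CC_s library and 0.499, 0.295 and 5.57 kb in HC, and 1.15 and 0 kb in CCC against 13.3, 8.91 and 15.8 kb in HHC. All WL libraries were above all their controls, and the difference of 2.21 on the log2 scale had the smallest p the design allows (exact p = 0.005). This call was kept in all 20 alternatives. Without a replicate block limma gave an adjusted p of 0.0282, where 1272 of 19949 loci were under 0.05. Within the gene body the coverage was 0.295 to 0.499 kb in HC and 1.66 to 4.77 kb in HHC, and 0 in their controls. In obesity the H3K27me3 coverage of the Mgll locus was not called. Its group means were 0.804 kb in C and 1.255 in H, and 0.744 in CC_l and 9.52 in HH. The promoter was marked in 2 of 3 HHC libraries, by 3.42 and 0.99 kb, in 1 of 2 H libraries and in no other. H3K4me3 at Mgll overlapped between the groups in WL (rank difference -9.50 points, exact p = 0.115).

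**Figure D5:**
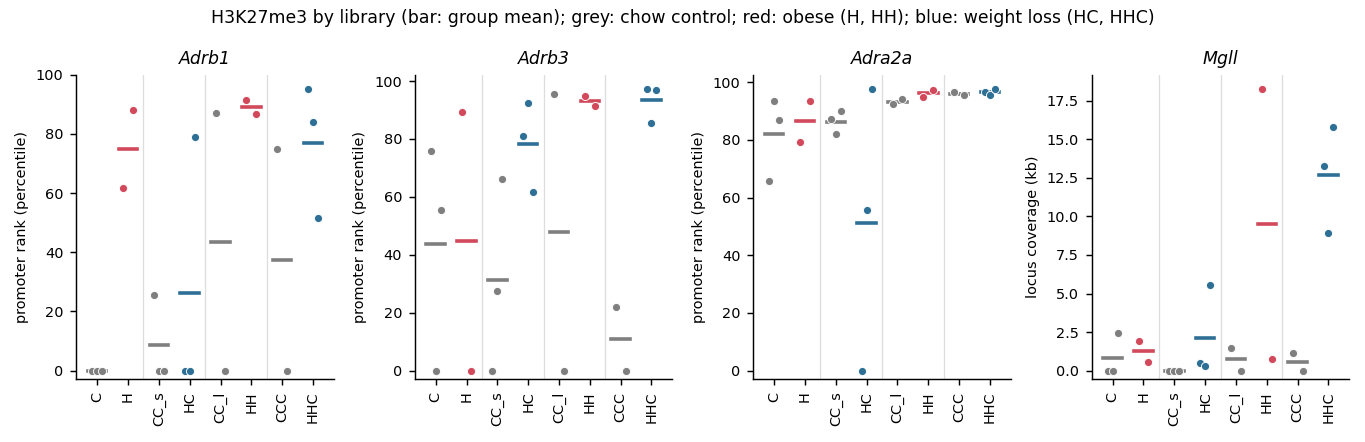
H3K27me3 in every library by diet group: promoter rank (percentile) of the 3 receptor genes and locus coverage (kb) of Mgll, with 1 point per library and a bar at the group mean. The Adrb1 promoter has no peak in C and a peak in both H libraries, and Mgll coverage in HHC lies at 8.91 to 15.8 kb, above every control.

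Adjusted over all genes, limma without a replicate block called Adrb1 in H3K4me3 rank (adjusted p = 0.00423), H3K27ac coverage at Adrb1, Adrb3, Mgll and Abhd5 in obesity (0.00814, 0.00791, 0.00666 and 0.0195), and after WL the H3K27me3 rank of Adrb3 (0.037) and coverage of Mgll (0.0282). Of all genes in obesity, 497 of 15167 were under 0.05 in the H3K4me3 rank and 5210 of 18329 in H3K27ac coverage. After WL, 185 of 9058 were under 0.05 in the H3K27me3 rank and 1272 of 19949 in H3K27me3 coverage.

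The other 32 genes of the pathway, a list of further receptors, G proteins, adenylyl cyclases, kinase subunits, phosphodiesterases, droplet proteins and antilipolytic receptors, were taken from the same comparisons. In H3K4me3 coverage 0 of 32 were called in obesity (median -0.46, all genes -0.24), and after WL 3 were lower (background 1.21%) and 1 higher (background 3.77%), with a median of -0.09. Lower were Ptger3, a prostaglandin E2 receptor that inhibits lipolysis, by 0.66, G0s2, the inhibitor of adipose triglyceride lipase, by 0.71, and Npr3, the natriuretic peptide clearance receptor, by 0.91, and Pde4b, a cyclic AMP phosphodiesterase, was higher by 1.26. In H3K27ac coverage 11 of 31 were lower in obesity (median -0.84), near the background of 28.7%, among them Gnai1, an inhibitory G protein subunit (-2.08), Adcy6, an adenylyl cyclase (-1.49), Hcar2, an antilipolytic receptor (-1.41), and Adra1d (-1.40). After WL 1 of 31 was lower, Ptger3 (-0.93, background 0.625%). In H3K4me1, Pde4b (1.04) and Adcy4 (0.74) were higher and Adcy6 (-1.27) lower in obesity (background 9.91% higher and 6.57% lower), and Gnai2 (0.87) was higher after WL (background 6.53%). In H3K27me3 coverage Adra2c was lower in obesity (-1.57, background 10.6%). After WL 7 of 32 were higher (background 6.48%) and 2 lower (background 9.44%), with a median of 0.52 (all genes 0.08). The higher were led by Plin1, the perilipin that guards the droplet (1.84), Adra1d (2.42), the adenylyl cyclase gene Adcy5 (2.33) and Cidec, a droplet fusion protein (1.61). All these differences had an exact p of 0.005 to 0.045 and an adjusted p of 0.114 or more.

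Across the 21 H3K27ac libraries, the locus coverage most like that of Adrb3 was that of Fam13a (Spearman 0.982), Hoxc8 (0.982) and Slit3 (0.981) of 18666 genes, whose median was 0.496. These values describe libraries that share depth and diet: Adrb3 coverage also ran with the total length covered in a library (Spearman 0.629).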

How the data were processed

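CUT&Tag for 4 hPTMs was performed by the authors on labelled adipocyte nuclei of mouse epiAT, giving 84 libraries in 32 groups of 2 or 3. Per the labels and the study's methods, reads were trimmed (Trim Galore 0.6.6), aligned to GRCm38 (Bowtie2 2.4.4, SAMtools 1.13), made into coverage tracks (bedtools 2.30), and searched for peaks with SEACR 1.3 (stringent mode, 1 library at a time), which kept the top 1% of blocks by signal. The lists deposited by the authors hold positions and a signal, the coverage summed over a peak, without scaling between libraries. Signal therefore served only to rank peaks within a library. Reads per region are not in the lists, the study's edgeR model was not fitted, and precision rests on the number of libraries.

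The 8 genes and the lists of 32 pathway genes, 7 adipocyte and 8 macrophage markers and markers of 6 other cell types were chosen with earlier results of these data known. All 8 genes are named. Of the pathway list at most 4 were named per mark and comparison, by smallest exact p of locus coverage. Distal regions were at most 2 merged H3K27ac regions per gene outside its promoter window, and genes like Adrb3 the 3 with the highest Spearman correlation. Peaks that touched a window by at least 1 bp counted. Groups came from the sample titles, and for 4 H3K4me3 libraries the treatment field differs. Exact tests permuted diet within cohorts over all genes, with Benjamini-Hochberg adjustment. The smallest p was 0.005, 0.01 or 0.0167 by group size. Methods were tested on simulated data (Python 3.11.15, NumPy 2.4.6, pandas 2.3.3, SciPy 1.17.1, matplotlib 3.10.9, R 4.3.3, limma 3.58.1).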

Additional observations from a re-analysis of the deposited data

Results flagged for a closer look

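The change in locus coverage differed between the cohorts, by an exact permutation test of the difference itself, at 6 pairs of gene and mark of the 64 tested, none of which passed adjustment over the 64 (smallest adjusted p = 0.356). In each, the diet-minus-control difference of the 25-week cohort was the higher. In obesity the cohorts differed in H3K4me3 by 2.28 on the log2 scale at Adrb1, by 1.12 at Lipe and by 1.33 at Abhd5 (exact p = 0.0333 each), and in H3K27ac by 1.25 at Pde3b (exact p = 0.025). After WL they differed in H3K27ac by 1.10 at Lipe (exact p = 0.01) and by 2.05 at Pnpla2 (exact p = 0.04). The lists of HH mice covered more of the genome than those of H mice, 80.8 Mb against 23.3 Mb on average in H3K4me3. Scaled to total peak length, 0 of the 4 obese and 0 of the 2 WL differences were called. Cohort, age and any shared preparation of the libraries cannot be told apart.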

How the results depend on the processing

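Counts here are of the 32 pairs of gene and mark with an exact p under 0.05. For scaling, centring, equal peak numbers, the treatment field and changed windows or flanks, the share of all genes called was not taken. A change in these counts therefore cannot be read as particular to the 8 genes. Of 36 calls, 8 were kept when any 1 library was left out, 6 under all other alternatives and 4 under both. In obesity the 9 width calls became 5 with a 500 bp window and 2 when scaled to total peak length, the 8 rank calls became 3 with the treatment field, and the 8 locus calls became 5 over the gene body alone. After WL the 2 width calls became 1 with equal peak numbers, 4 scaled and 5 centred (centring was chosen after seeing the data), and the 3 locus calls became 7 over the gene body, 10 scaled and 13 centred. The 4 cohort differences of obesity became 8 with the treatment field, 2 with equal peak numbers, 20 kb flanks or the gene body, 0 scaled and 1 centred, and the 2 of WL became 1, 1, 0 and 1 with 20 kb flanks, the gene body, scaling and centring. Promoters gained or lost were 1 in H (2 with 500 bp) and 0 in HHC (1 with equal peak numbers, 2 with 500 bp). Lipe H3K27ac width turned to 0.0692 when scaled, and Pnpla2 H3K27ac coverage to 0.10 scaled and 0.0038 centred. Without the libraries in which an adipocyte promoter was unmarked, also chosen after seeing the data, the 6 WL rank calls became 3 and the 2 cohort differences of WL 0. The causes were not tested.

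Leaving out 1 library gave 6 to 10 width, 5 to 12 rank and 6 to 11 locus calls in obesity and 1 to 5, 1 to 7 and 1 to 5 after WL, 1 to 7 and 0 to 4 cohort differences, and 1 to 2, 0 to 2, 0 to 1 and 0 to 2 promoter calls in H, HH, HC and HHC.

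Replicate numbers are not stated to pair libraries. Of 36 same-numbered pairs, 10 correlated above 0.1 (r from -0.4 to 0.315). Pairs with different numbers were not compared, so this cannot settle whether the numbers pair libraries. With limma and no replicate block the calls were 17 for obese locus coverage, 1 for WL width and 7 for WL locus coverage. With the replicate block they were 13, 6 and 19 for obese width, rank and locus coverage and 5, 6 and 9 after WL, and 5 adjusted p of the 192 were under 0.05. Lost among the adjusted calls were the H3K4me3 rank of Adrb1 in obesity (adjusted p = 0.252 with the block) and, after WL, the H3K27me3 rank of Adrb3 (0.156) and coverage of Mgll (0.059), and the obese H3K27me3 width of Adrb1 was gained (0.0389). In that obese width 2167 of 8524 promoters were under 0.05 with the block. The depth of each library is unknown, and with 2 or 3 libraries a group no comparison within a cohort can reach 0.05.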
